A study of Mus musculus with 40 samples.

Results

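Whole-brain expression was compared between mice fed a high-fat or a low-fat diet after weaning, all of them born to dams fed the high-fat diet. Of the 40 arrays of the series, the 20 with a maternal diet labelled HF were kept and split by the animal's own diet. HF_HF (10 arrays) names animals on the high-fat, low-carbohydrate diet whose dams had eaten the same diet, and HF_LF (10 arrays) names animals moved at weaning to the low-fat, high-carbohydrate diet. The dams ate their diet from before mating, through pregnancy and until weaning, so exposure before conception, in the womb and through milk is shared by both groups and cannot be separated. All animals were males of the inbred strain C57BL/6J (given in the labels as C57BL\6), killed at 9 weeks of age. The other 20 arrays, from offspring of dams fed the low-fat diet (LF_LF and LF_HF, 10 each), were used only to set the same dietary contrast beside this one.

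Body weight differed between the groups. Weight at the second weighing was 28.44 g at the lowest, 30 g at the median and 34.06 g at the highest in HF_HF, against 20.38, 24.7 and 25.82 g in HF_LF, with no overlap between groups. The label calls this second weighing weaning although an earlier weight at 3 weeks is also given, so the age at which it was taken is not settled by the labels. At 3 weeks, the age of weaning, the animals weighed 9.38 to 13.36 g (HF_HF) and 9.71 to 11.96 g (HF_LF), so the second weighing came later. The paper states that this cohort was weighed when killed at 9 weeks. Blood glucose overlapped widely (129 to 271 mg/dl in HF_HF, 148 to 241 mg/dl in HF_LF).

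The animals carried 6 cage labels. Labels 10, 20 and 23 were on animals of both diets (7 HF_HF and 6 HF_LF animals). Label 21 was on 3 HF_HF animals, and labels 1 and 12 were on 2 HF_LF animals each. The paper divided the males of each cage between the diets at weaning. A cage said below to have held both diets is thus a shared label, and housing together after weaning is not implied. Litters are not labelled, so animals of a cage may also share a dam. Of 25697 probes, 14350 exceeded the background of their array on at least 20 of the 40 arrays and were tested. Markers of neurons, oligodendrocytes and astrocytes (Slc17a7, Gad1, Mbp, Aqp4 and Gfap) were above background on 20 of 20 arrays, the probe for the synaptic gene Snap25 on 0, and the liver gene Alb on 0. The pancreatic gene Cela1 and the muscle gene Acta1 were above background on 20 of 20. The mean correlation of an array with the others ran from 0.965 to 0.983, 5 arrays (2 HF_HF and 3 HF_LF) stood apart by a low value, and principal component 1 carried 56.8% of the variance, with 4 animals of each group on its negative side.

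A diet rich in fat reaches the brain through several routes that are well described in rodents. It changes the timing of feeding and the amplitude of circadian genes, it alters glucocorticoid secretion and the leptin and insulin signals read by hypothalamic neurons, and long exposure is associated with activation of glial and vascular cells. Transcripts of each of these systems were followed through the comparison, beside markers of cell types and brain regions. The lists were compiled by hand with earlier results of these data already known, so a leading gene found in a list is no separate support.

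No probe passed the threshold after adjustment for multiple testing. The limma test, with Benjamini-Hochberg adjustment over 14350 probes, called 0 of them (0%). A t-test with variances regularised by signal level and an ordinary t-test, run over the same probes, also called 0. The paper, in contrast, reports differentially expressed brain genes for this comparison at a false discovery rate under 0.05, from a Bayesian test. Why the outcomes differ was not tested. At an unadjusted p under 0.05 limma passed 173 probes (1.21%), 107 of them higher in HF_HF (0.746%) and 66 lower (0.46%), where the threshold times the number of probes gives 717.5. The regularised test passed 101 (0.704%) and the ordinary test 194 (1.35%). Of all probes 53.1% lay above 0 and 46.9% below. The median absolute log2 difference was 0.0395, only 16 probes (0.111%) differed by more than 0.5, and the median standard error was 0.0758. No probe separated all 10 HF_HF animals from all 10 HF_LF animals in either direction (0%). The genes named below therefore did not pass the adjusted threshold, and their values are given with the unadjusted limma p.

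**Figure D1:**
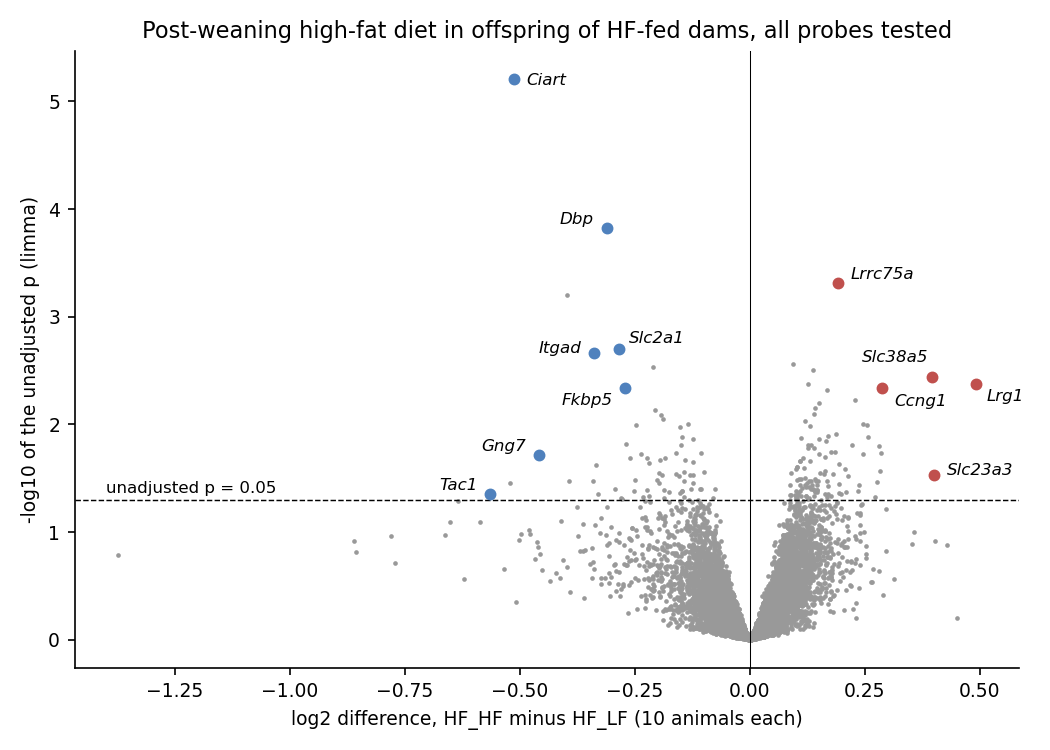
Difference between HF_HF and HF_LF (log2, x axis) and unadjusted limma p (negative log10, y axis) for each of 14350 probes, with 12 leading genes labelled in red where higher and in blue where lower in HF_HF. Ciart stood farthest from the other probes (p = 6.18e-06) and 173 probes lay above the dashed line at 0.05.

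The probe nearest to the threshold belonged to Ciart, whose protein represses transcription driven by the circadian activators CLOCK and BMAL1. Its log2 normalised intensity was 7.84 at the lowest, 8.24 at the median and 8.38 at the highest in HF_HF, against 8.32, 8.74 and 9.09 in HF_LF. All 10 HF_HF animals lay below the HF_LF mean, and the ranges overlapped only between 8.32 and 8.38. The difference was -0.51 (SE 0.0864, 1.43-fold lower, p = 6.18e-06, adjusted p = 0.0888). It had the same sign within each of the cages that held both diets, at -0.57 in cage 10, -0.59 in cage 20 and -0.37 in cage 23. A second Ciart probe ran from 7.66 to 8.52 (median 8.15) in HF_HF and from 8.15 to 8.84 (median 8.54) in HF_LF, a difference of -0.40 (SE 0.0993, p = 0.000634). Both probes of the gene were thus lower, and the second overlapped more between groups than the first. The first probe passed the adjusted threshold in 6 of 41 other settings. Its adjusted limma p was 0.00597 after cyclic loess normalisation and 0.00164 without the 5 arrays that stood apart. It was 0.0314 without HF_LF animal 9 and 0.00968 without HF_LF animal 7. Those animals had low values for their group (8.42 and 8.32), so leaving either out widens the difference by construction. With cage as a fixed block in limma the difference was -0.47 (p = 0.00144) and the adjusted p was 0.939.

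The second leading gene was also a clock output gene. Dbp encodes a transcription factor that binds D-box elements and whose own transcription is a direct target of CLOCK and BMAL1. Its level was 11.31, 11.48 and 11.96 (lowest, median, highest) in HF_HF and 11.59, 11.85 and 11.97 in HF_LF. Of the HF_HF animals 9 of 10 lay below the HF_LF mean, the exception being HF_HF animal 9 of cage 21 (the number is only a name) at 11.96, next to the highest value of either group. The difference was -0.31 (SE 0.0678, 1.24-fold lower, p = 0.000151). Without that animal it was -0.36 with an adjusted p of 0.0189. That animal lay farthest toward HF_LF, so leaving it out widens the difference by construction and adds no support. Nfil3, a repressor that competes for the same D-box elements, was on the opposite side, at 8.48, 8.70 and 9.08 in HF_HF and 8.19, 8.51 and 8.83 in HF_LF (difference 0.21, SE 0.0923, p = 0.0299), and with cage as a fixed block, a fit in which only the cages with both diets inform the difference, it was 0.22 (SE 0.108, p = 0.0544).

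The other clock genes had smaller differences without a cage term. Of the 5 measured clock output genes 2 had an unadjusted p under 0.05 on the lower side and 1 on the higher, with a median of -0.06 and Usp2, a deubiquitinase with a daily rhythm, at -0.06 (SE 0.0825). With cage as a fixed block Usp2 was at -0.23 (SE 0.0964, p = 0.0302), the list median was -0.23, and 3 of the 5 members (Ciart, Dbp and Usp2) had an unadjusted p under 0.05, all lower. Over all probes the block passed 323 (2.25%). Ciart and Dbp already led the comparison, so their place in this count is no separate support. Of the 14 measured core clock genes 8 were higher and 6 lower, with a median of 0.01 (the median over all probes was 0.00456) and 0 at an unadjusted p under 0.05. Rora (-0.19, SE 0.157) and Nr1d1 (-0.09, SE 0.0751), nuclear receptors that drive and repress Bmal1, and the period genes Per1 (-0.11, SE 0.101) and Per3 (0.07, SE 0.0667) all lay within 2 standard errors of 0. With the block the median of this list was 0.06 and 1 member passed, on the higher side. The times of day at which the animals were killed are not in the labels, so their part in these values was not tested.

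The upstream sequences of Ciart and Dbp are shown because CLOCK and BMAL1 bind the E-box, and that of Fkbp5 because it is the leading glucocorticoid-responsive gene, described next. The sequences are RefSeq promoters (build GRCm38.p6), from 250 bases before to 50 bases after the annotated start, printed 5′ to 3′ along the gene with each E-box (the letters CACGTG, the same on both strands) in capitals.
Ciart, chr3:95882179-95882478, minus strand: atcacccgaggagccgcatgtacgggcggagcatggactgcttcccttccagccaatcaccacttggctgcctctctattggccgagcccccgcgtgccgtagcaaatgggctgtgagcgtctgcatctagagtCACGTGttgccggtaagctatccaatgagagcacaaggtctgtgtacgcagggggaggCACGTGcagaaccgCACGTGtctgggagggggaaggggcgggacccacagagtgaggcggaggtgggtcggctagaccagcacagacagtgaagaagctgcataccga
Dbp, chr7:45704997-45705296, plus strand: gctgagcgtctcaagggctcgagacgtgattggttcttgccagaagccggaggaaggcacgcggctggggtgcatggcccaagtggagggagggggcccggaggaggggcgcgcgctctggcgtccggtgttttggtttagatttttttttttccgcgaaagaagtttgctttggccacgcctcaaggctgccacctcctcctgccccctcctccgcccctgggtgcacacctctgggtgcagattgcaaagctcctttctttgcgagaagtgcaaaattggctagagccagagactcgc
Fkbp5, chr17:28486100-28486399, minus strand: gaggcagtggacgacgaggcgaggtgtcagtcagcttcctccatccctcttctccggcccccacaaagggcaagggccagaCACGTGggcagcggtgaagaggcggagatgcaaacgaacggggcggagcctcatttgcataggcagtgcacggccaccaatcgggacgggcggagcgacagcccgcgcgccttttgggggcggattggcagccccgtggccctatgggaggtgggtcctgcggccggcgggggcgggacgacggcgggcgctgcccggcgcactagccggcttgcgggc
The Ciart window held 3 E-boxes, at positions -116, -58 and -44 from the annotated start, the Fkbp5 window 1 and the Dbp window 0. Of 32851 promoter windows of this length 7.15% held at least 1 E-box and 0.0883% (29 windows) at least 3. The full palindromic glucocorticoid response element, searched on both strands, was in none of these windows and in 0.00913% of all windows. The windows are short, and the matches describe letters only.

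**Figure D2:**
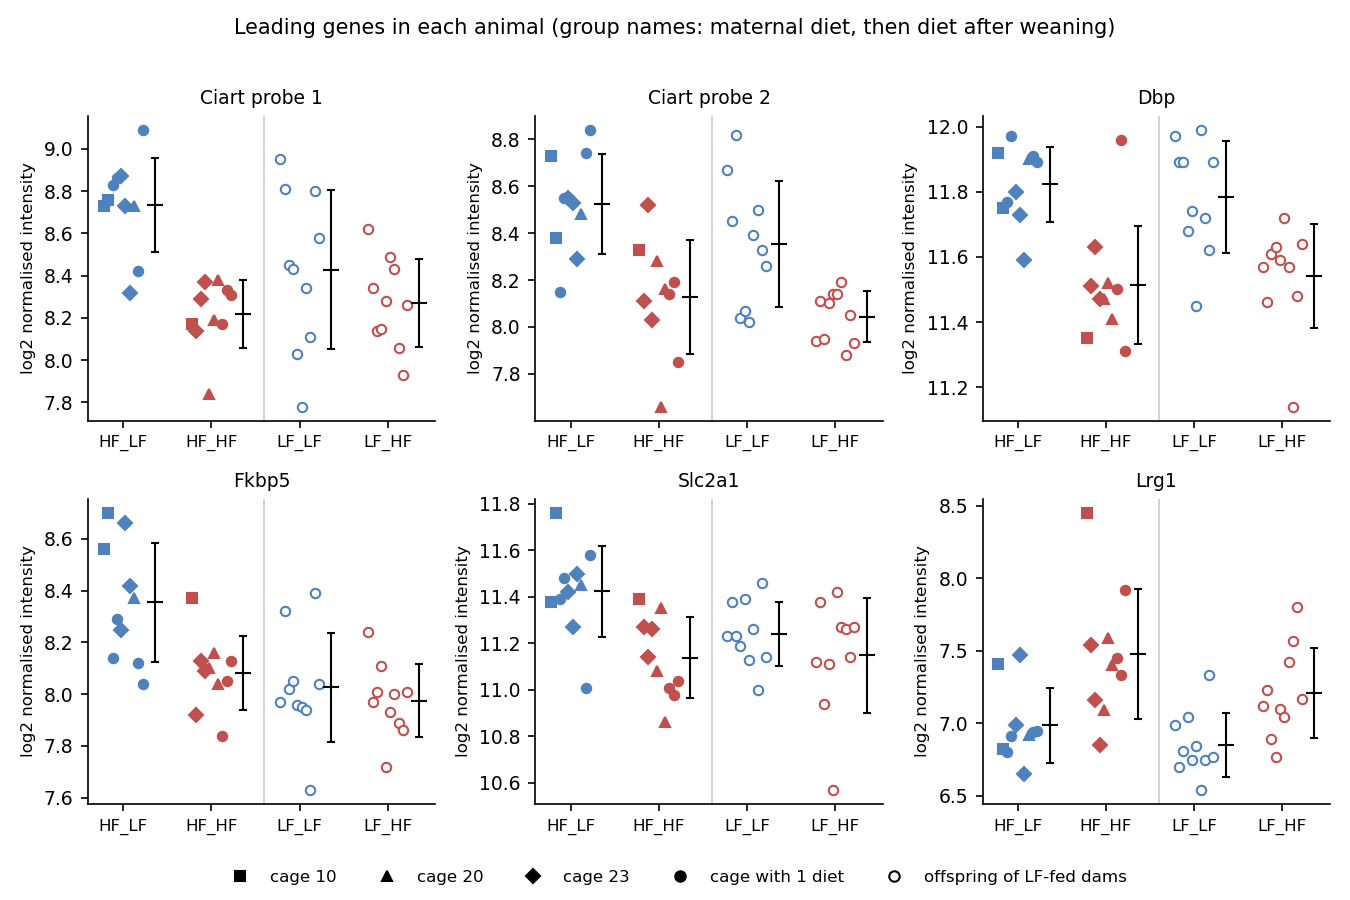
Log2 normalised intensity (y axis) of 6 probes in each animal of the 4 groups (x axis, maternal diet then own diet), with the mean and SD of 10 animals beside the points and symbols for the cages that held both diets. The HF_HF animals lay below most HF_LF animals for both Ciart probes, Dbp, Fkbp5 and Slc2a1, and above most for Lrg1, with overlap in each panel.

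Most genes induced by glucocorticoids had a difference below 0. Of 19 measured members of the list 17 were lower and 2 higher, with a median of -0.10, and 2 had an unadjusted p under 0.05. Over all probes 46.9% were lower, and 0.46% were lower at that threshold of the limma p. Members of a list were read in the same 20 animals and are not independent of one another. All 10 HF_HF animals had a list level below the HF_LF mean (9.15, 9.36 and 9.44 in HF_HF, 9.32, 9.44 and 9.61 in HF_LF). Fkbp5, a co-chaperone that lowers the affinity of the glucocorticoid receptor, was at 7.84, 8.10 and 8.37 in HF_HF and at 8.04, 8.33 and 8.70 in HF_LF. Its difference was -0.27 (SE 0.0854, p = 0.00463), with 9 of 10 HF_HF animals below the HF_LF mean. Ddit4, an inhibitor of mTOR signalling, differed by -0.28 (SE 0.133, p = 0.0493), the kinase gene Sgk1 by -0.32 (SE 0.172, p = 0.0743) and Nfkbia, the inhibitor of NF-kappaB, by -0.19 (SE 0.1, p = 0.0761).

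The difference of Fkbp5 and the median of this list shifted in opposite ways when cage was taken into account. With cage as a fixed block Fkbp5 was at -0.33 (SE 0.0825, p = 0.000958), with -0.26, -0.27 and -0.39 in cages 10, 20 and 23. Ddit4 was then at -0.01 (SE 0.16) and Sgk1 at -0.02 (SE 0.182), and the list median moved from -0.10 to -0.01.

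Most immediate early genes, which neurons switch on soon after activity, had a difference above 0. Of 19 measured members 18 were higher and 1 lower, where 53.1% of all probes were higher. The list median was 0.13, and 0 members had an unadjusted p under 0.05. The 4 with the smallest p were the neuronal activity factor Npas4 (0.24, SE 0.121, p = 0.0566), Klf4 (0.15, SE 0.0741, p = 0.0618), Fosb (0.19, SE 0.116, p = 0.124) and Gadd45b (0.09, SE 0.0665, p = 0.174). Among late activity-dependent genes, 9 of 14 were higher (median 0.08). Where 0.746% of all probes were higher at an unadjusted p under 0.05, 3 of these genes were. These were the neurotrophin Bdnf (0.24, SE 0.107, p = 0.0368), the synaptic surface protein gene Nrn1 (0.21, SE 0.0968, p = 0.0425) and the secreted peptide precursor Vgf (0.17, SE 0.08, p = 0.0472), with Nptx2, a pentraxin of excitatory synapses, at 0.25 (SE 0.145, p = 0.1). With cage as a fixed block 0 of the 14 had an unadjusted p under 0.05 (Bdnf p = 0.131, Nrn1 p = 0.233, Vgf p = 0.0834), and the list median was 0.13. HF_HF animal 6 was the lowest for Bdnf, at 8.77 with the next at 9.30.

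The values of the immediate early genes depended on cage. Cage as a fixed block passed 323 of all probes at an unadjusted p under 0.05 (2.25%) and 0 after adjustment, and among the 19 immediate early genes it passed 8, all of them higher, with the list median at 0.25. The genes that follow were chosen after these values were seen. Fos, the founding member of the class, was at 8.08, 9.20 and 9.99 in HF_HF and at 8.15, 8.93 and 9.41 in HF_LF. The HF_LF range lay inside that of HF_HF, and the difference was 0.22 (SE 0.215, p = 0.316). Within cages the difference was 0.82 in cage 10, 0.76 in cage 20 and 0.90 in cage 23, and the block gave 0.85 (SE 0.187, p = 0.000312, adjusted p = 0.939). The cages with a single diet ran the other way, with a mean of 8.53 in the HF_HF animals of cage 21 and of 9.20 and 9.41 in the HF_LF animals of cages 1 and 12.

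Other members shifted in the same way. With the block, the zinc finger factor Egr1 was at 0.57 (SE 0.191) against 0.21 without it, Egr2 at 0.74 (SE 0.202) against 0.18, the synaptic gene Arc at 0.84 (SE 0.297) against 0.18, Junb at 0.40 (SE 0.133) against 0.11 and the phosphatase gene Dusp1 at 0.42 (SE 0.113) against 0.05. Without cage 23 the difference of Fos was -0.07 and that of Arc -0.26. The block rests on 13 animals, and only 1 HF_HF animal in cage 10 and 1 HF_LF animal in cage 20. The order in which animals of a cage were handled and killed is not in the labels and was not tested.

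**Figure D3:**
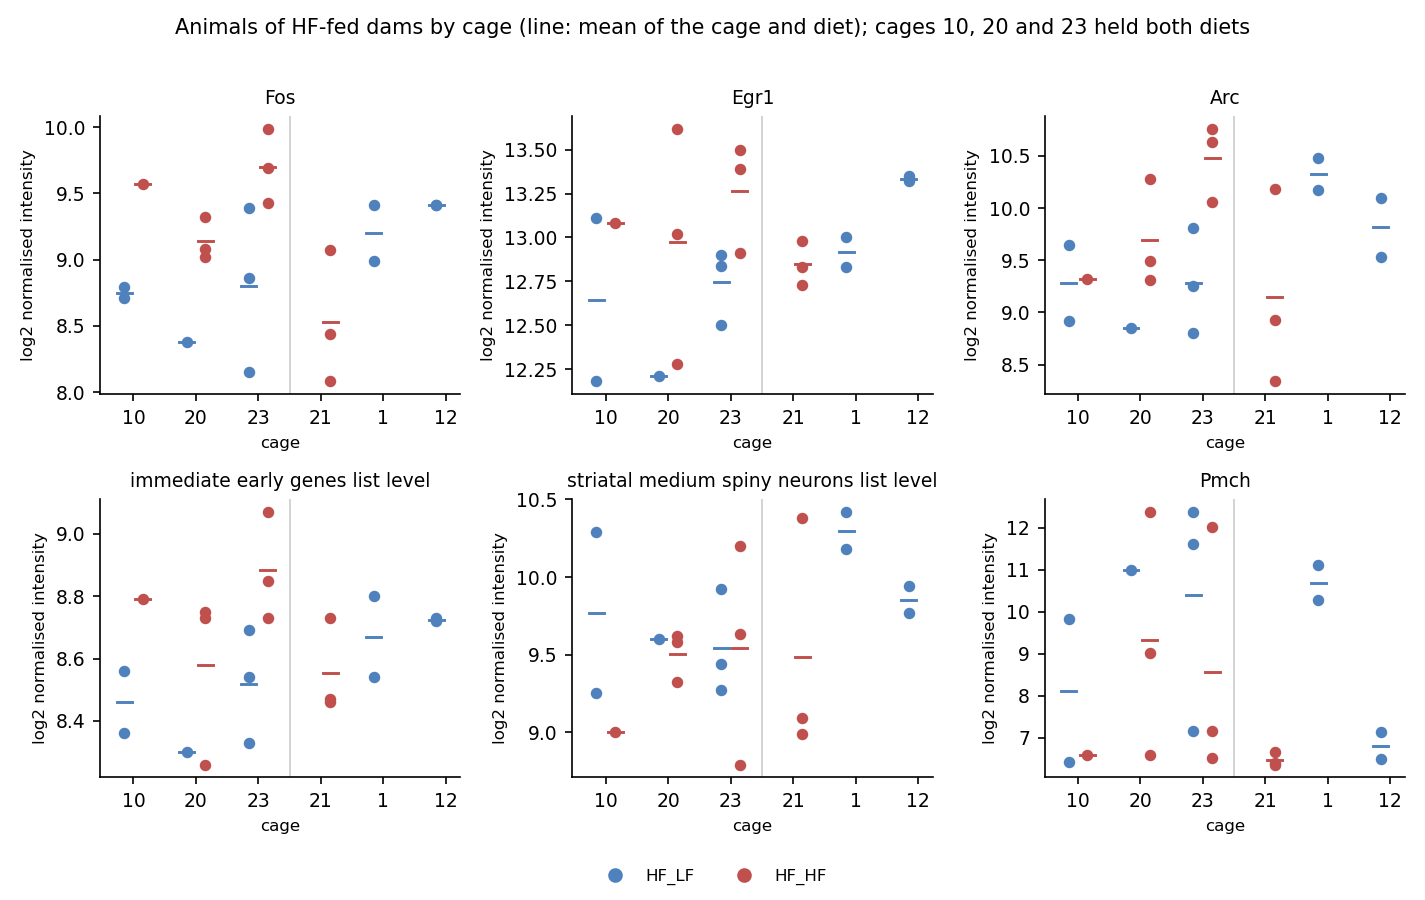
Log2 normalised intensity (y axis) of each animal born to HF-fed dams, by cage (x axis), with a line at the mean of each cage and diet, for 4 genes and 2 list levels. Fos was higher in the HF_HF animals within cages 10, 20 and 23 (means 9.57, 9.14 and 9.70 against 8.75, 8.38 and 8.80), while Pmch lay near 6.5 or well above it in animals of both diets.

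Several genes of vascular and inflammatory cells were among those with the smallest p. Lrg1, a secreted glycoprotein of the acute phase and of activated endothelium, was at 6.85, 7.42 and 8.45 in HF_HF and at 6.65, 6.93 and 7.47 in HF_LF, with 9 of 10 HF_HF animals above the HF_LF mean. The difference of 0.49 (SE 0.154, 1.41-fold higher, p = 0.00421) was the largest increase of any probe. The adhesion molecule gene Icam1 (0.17, SE 0.0532, p = 0.00476) was above the HF_LF mean in 10 of 10 HF_HF animals, and the oncostatin M receptor gene Osmr (0.15, SE 0.0498, p = 0.00632) and the leukocyte myosin gene Myo1f (0.14, SE 0.048, p = 0.00798) in 9 of 10. Itgad, a leukocyte integrin, was on the lower side (-0.34, SE 0.0973, p = 0.00215), as was the endothelial receptor gene Notch4 (-0.21, SE 0.063, p = 0.00296), whose second probe differed by -0.05 (SE 0.0618). The Itgad probe was above background on 12 of 20 arrays.

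Transporters of the blood-brain barrier and of glia lay on both sides. Slc2a1, the glucose transporter of brain endothelium and astrocytes, was at 10.86, 11.11 and 11.39 in HF_HF and at 11.01, 11.43 and 11.76 in HF_LF. All 10 HF_HF animals were below the HF_LF mean, and the difference was -0.28 (SE 0.0809, 1.22-fold lower, p = 0.002). Slc38a5, a transporter of glutamine and other neutral amino acids, was higher by 0.40 (SE 0.122, p = 0.00362) without the block and by 0.23 (SE 0.15, p = 0.147) with it. Mfsd2a, which carries lysophospholipids with omega-3 fatty acids across endothelium, differed by -0.18 (SE 0.0881, p = 0.0479).

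Marker lists of the cells that carry these transcripts had medians near 0. Of 14 endothelial and vessel wall markers 7 were higher and 7 lower (median 0.01), Mfsd2a being the one at an unadjusted p under 0.05, with Tek at 0.12 (SE 0.075), Vwf at 0.21 (SE 0.134) and Pecam1 at 0.09 (SE 0.0739). Of 13 microglial markers 11 were higher (median 0.08) with 0 at an unadjusted p under 0.05, the leading ones being Fcrls (0.19, SE 0.102), Cx3cr1 (0.14, SE 0.0837), C1qc (0.12, SE 0.105) and P2ry13 (0.10, SE 0.0899). Blood transcripts split, with the neutrophil genes S100a8 (0.43, SE 0.275) and S100a9 (0.30, SE 0.15) on the higher side and the red-cell genes Hba-a1 (-0.34, SE 0.187) and Alas2 (-0.23, SE 0.125) on the lower. The part of residual blood in the leukocyte values was not tested.

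The remaining genes with the smallest p came from varied pathways. Higher in HF_HF were the p53 target Ccng1 (0.29, SE 0.0911, p = 0.00456, with its 2 other probes at 0.09 and 0.12), the metal-responsive factor Mtf1 (0.09, SE 0.0277, p = 0.00273, second probe 0.04), the mitochondrial ribosomal gene Mrpl15 (0.14, SE 0.0414, p = 0.0031), Lrrc75a (0.19, SE 0.0469, p = 0.000491), the zinc finger gene Zfp709 (0.13, SE 0.0401) and the RNA-binding gene Raver2 (0.14, SE 0.0479). This Lrrc75a probe was above background on 14 of 20 arrays. The brighter Lrrc75a probes differed by 0.16 (SE 0.139, p = 0.261) and 0.13 (SE 0.145, p = 0.391). Lower were the transcription factor Foxp2 (-0.20, SE 0.0691, p = 0.00735, other probes -0.08 and -0.12), the purine-degrading enzyme gene Xdh (-0.19, SE 0.0662), the p53-induced gene Trp53inp1 (-0.19, SE 0.0656, second probe -0.15 with SE 0.222), the complex I assembly factor Foxred1 (-0.13, SE 0.0469, with 4 other probes between -0.05 and 0.02), the metalloproteinase inhibitor Timp3 (-0.25, SE 0.0871, second probe -0.05) and Clcc1, a chloride channel of the endoplasmic reticulum (-0.15, SE 0.0541). Slc23a3, of the ascorbate transporter family (0.40, SE 0.172, p = 0.0292), and the transcription factor Zeb2 (0.28, SE 0.119, p = 0.0269) had among the largest differences. For Ccng1, Notch4, Foxred1 and Timp3 the probes of the gene did not give the same size of difference. The Clcc1 probe was above background on 10 of 20 arrays.

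Genes of the unfolded protein response were higher in 16 of 18 measured members, with a median of 0.07, where 53.1% of all probes were higher. Chac1, which degrades glutathione and is induced by the stress factor ATF4, was at 9.48, 9.64 and 9.88 in HF_HF and at 9.15, 9.41 and 9.84 in HF_LF, and all 10 HF_HF animals lay above the HF_LF mean (0.23, SE 0.0755, p = 0.00594). It was the one member at an unadjusted p under 0.05, and with cage as a block its difference was 0.06 (SE 0.087). The chaperone gene Hyou1 (0.12, SE 0.0636), the transcription factor gene Xbp1 (0.13, SE 0.0817) and Atf4 itself (0.09, SE 0.066) followed, and with the block Xbp1 was at 0.27 (SE 0.0918, p = 0.00848) and the list median at 0.15. Of 20 heat shock genes 12 were higher and 8 lower (median 0.03, 0 at an unadjusted p under 0.05), with Hspb1 at 0.15 (SE 0.087), Ahsa1 at 0.10 (SE 0.0621), Hspb8 at 0.11 (SE 0.0725) and Hsph1 at 0.13 (SE 0.0848). With the block the median of the heat shock list was 0.14 and 3 members had an unadjusted p under 0.05, all higher, among them Hspb1 (0.24, SE 0.101, p = 0.0278) and Ahsa1 (0.18, SE 0.0763, p = 0.0335).

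Genes of energy metabolism centred on 0. In 8 lists that cover the respiratory chain, ATP synthase, ubiquinone synthesis, the citrate cycle with pyruvate dehydrogenase, glycolysis, and fatty acid oxidation, 140 members were measured, 55 higher and 85 lower, and Slc2a1 was the one at an unadjusted p under 0.05. The list medians ran from -0.03 to 0.02. The 76 subunits of the respiratory chain and ATP synthase had 0 at that threshold, and the citrate cycle list was lower in 17 of 23 members with a median of -0.02. In 4 lists of cytosolic ribosome, mitochondrial ribosome, proteasome and nuclear transport genes 131 members were measured and Mrpl15 was the one that passed.

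**Figure D4:**
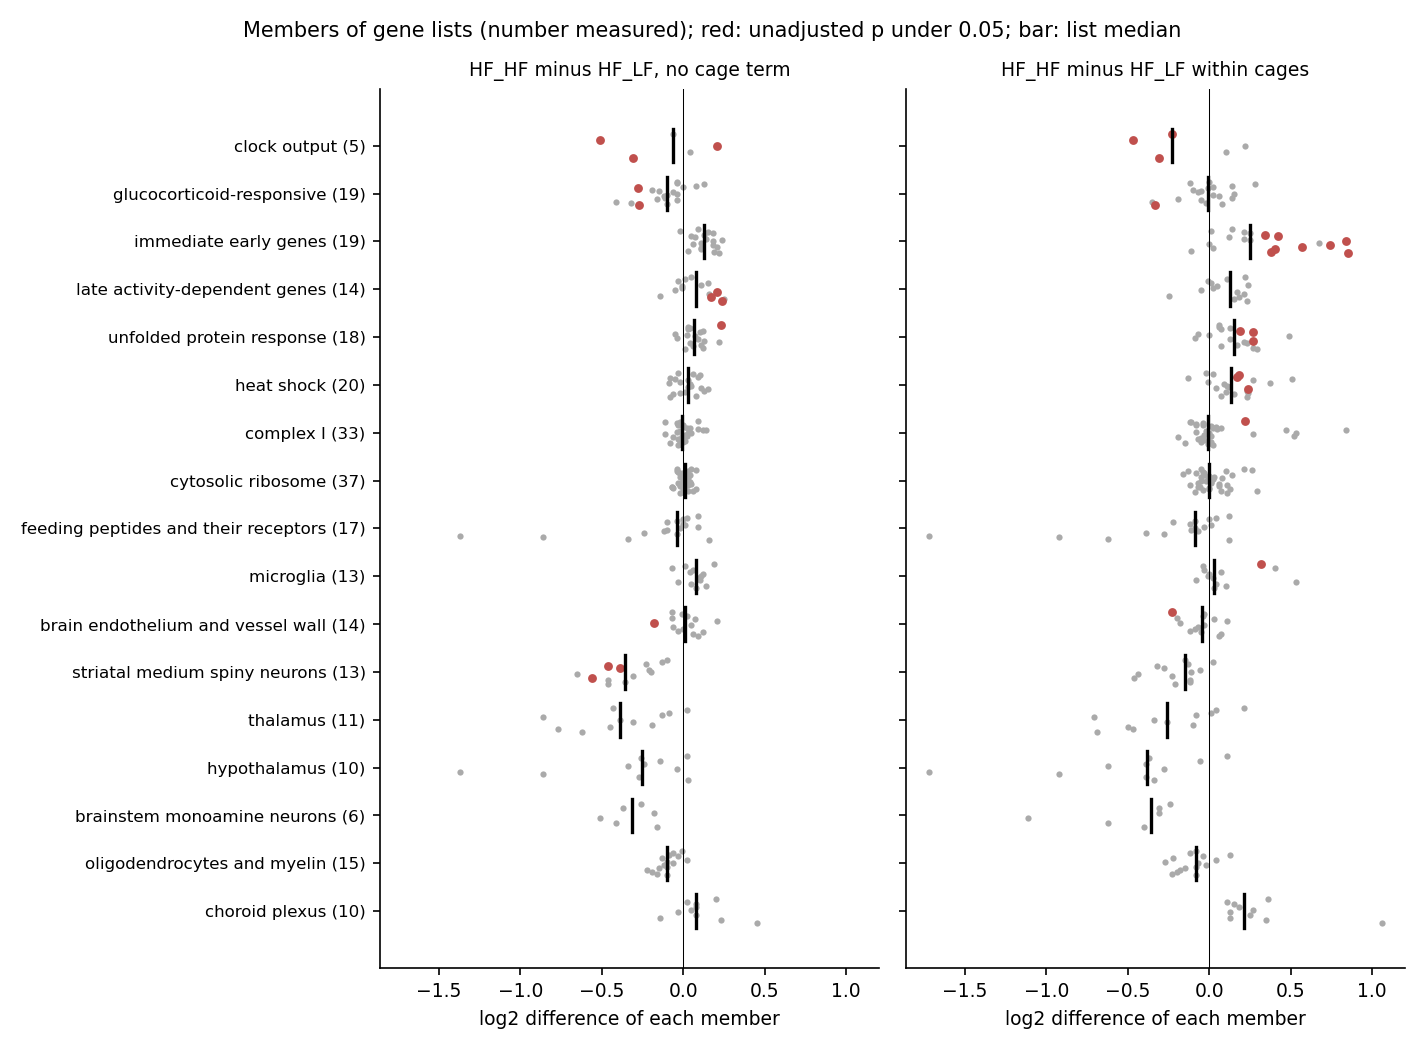
Log2 difference between HF_HF and HF_LF (x axis) of each measured member of 17 gene lists (y axis, number measured in brackets), without a cage term (left) and with cage as a fixed block (right), red where the unadjusted p was under 0.05 and with a bar at the list median. Striatal markers lay below 0 on the left (median -0.36) and nearer to it on the right (-0.15), and immediate early genes moved from 0.13 to 0.25.

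Peptides that govern feeding were measured in 17 genes, 6 higher and 11 lower, with a median of -0.04 and 0 at an unadjusted p under 0.05. Pmch, the melanin-concentrating hormone precursor of the lateral hypothalamus, was at 6.36, 6.63 and 12.37 in HF_HF and at 6.43, 10.04 and 12.38 in HF_LF. Hcrt, the orexin precursor of the same region, was at 6.02, 6.37 and 9.68 and at 6.26, 7.91 and 9.95. Both genes lay near background in some animals of each group and far above it in others. Hcrt was above background on 3 of 10 arrays in HF_HF, 6 of 10 in HF_LF, 8 of 10 in LF_HF and 7 of 10 in LF_LF, and the differences of -1.37 for Pmch (SE 0.954, p = 0.164) and -0.86 for Hcrt (SE 0.578, p = 0.153) were within this spread.

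The other peptides and receptors were also within the spread. Cartpt, a satiety peptide precursor, differed by -0.34 (SE 0.302), galanin (Gal) by -0.24 (SE 0.374), neurotensin (Nts) by -0.12 (SE 0.14), Ghrh by -0.10 (SE 0.0938), Trh by -0.04 (SE 0.33) and the appetite-stimulating Npy by 0.16 (SE 0.156). The leptin signalling inhibitor Socs3 was at 0.09 (SE 0.0606, p = 0.147), the neuropeptide Y receptors Npy1r, Npy2r and Npy5r at 0.09, 0.01 and 0.00, the orexin receptor Hcrtr1 at -0.10, the melanocortin receptor Mc4r at -0.02, Mchr1 at -0.04, the cannabinoid receptor Cnr1 at 0.02 and the ghrelin receptor Ghsr at -0.00. A further 6 genes of the list were not kept because their probes were near background.

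Most markers of subcortical regions had lower values in HF_HF, with wide variation between animals. Of 13 markers of striatal medium spiny neurons 13 were lower (median -0.36), where 46.9% of all probes were lower. Lower at an unadjusted p under 0.05 were 0.46% of all probes, and 3 of these markers. These were Gng7, a G protein subunit (10.29, 10.90 and 11.82 in HF_HF, 10.81, 11.38 and 12.08 in HF_LF, difference -0.46, SE 0.181, p = 0.0192), the phosphodiesterase gene Pde1b (-0.39, SE 0.173, p = 0.0339) and Tac1, the substance P precursor (-0.56, SE 0.264, p = 0.0443), with the regulator of G protein signalling Rgs9 at -0.65 (SE 0.355, p = 0.08). The list level ran from 8.79 to 10.38 (median 9.45) in HF_HF and from 9.25 to 10.42 (median 9.85) in HF_LF, so the groups overlapped over most of their range. The markers were read in the same animals and are not separate results. Gng7, Pde1b, Rgs9 and Tac1 each had their highest HF_HF value in animal 9 (11.82, 12.62, 11.84 and 10.58).

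The striatal difference was uneven between cages. The difference in list level was -0.77 in cage 10, -0.10 in cage 20 and -0.00 in cage 23, and the median over members was -0.15 with cage as a block, with 0 members at an unadjusted p under 0.05. Markers of the thalamus were lower in 10 of 11 (median -0.39), with Gbx2 at -0.86 (SE 0.534), Prkcd at -0.77 (SE 0.577) and Slc17a6 at -0.45 (SE 0.362) leading together with Rora, which is also on the clock list. Markers of the hypothalamus were lower in 8 of 10 (median -0.25), led by Hcrt, Pmch, Nkx2-1 (-0.14, SE 0.115) and Cartpt, and markers of brainstem monoamine and cholinergic neurons in 6 of 6 (median -0.32), led by Chat (-0.37, SE 0.187), Slc5a7 (-0.26, SE 0.159), Ddc (-0.41, SE 0.293) and the dopamine transporter Slc6a3 (-0.51, SE 0.656). None of the members of these 3 lists had an unadjusted p under 0.05. Slc10a4, a vesicular protein of cholinergic and monoaminergic neurons, differed by -0.52 (SE 0.231, p = 0.0347).

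In bulk tissue fewer cells of a type and less RNA per cell cannot be told apart. How much of the brain entered each extract was not tested. Of 12 markers of hippocampus and cortex 8 were higher (median 0.09), with 1 at an unadjusted p under 0.05, on the lower side. Higher too were 9 of 13 interneuron markers (median 0.06) and 4 of 6 olfactory bulb markers (median 0.01). In the cerebellum list 4 of 6 markers were lower (median -0.09). Of 15 markers of oligodendrocytes and myelin 14 were lower (median -0.10) and of 10 choroid plexus markers 8 were higher (median 0.08), in both lists with 0 at an unadjusted p under 0.05, and none of the 8 pituitary genes with a probe was kept.

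The same dietary contrast in offspring of LF-fed dams, which used 20 other animals, ran partly alongside. Over all probes the sign was shared for 59.1%, and across probes, which are not independent replicates and were normalised together, the 2 sets of differences had a Pearson correlation of 0.299 and a Spearman correlation of 0.29. In that comparison 0 probes passed the adjusted threshold (0%) and 793 (5.53%) had an unadjusted p under 0.05, 4.13% higher and 1.4% lower. Of the 12 genes with the smallest p on the higher side in offspring of HF-fed dams 12 were also higher there, 4 of them at an unadjusted p under 0.05, and of the 12 on the lower side 9 were lower, 1 of them at that threshold. These counts take the sign alone. Mtf1 (0.00), Raver2 (0.01), Zfp709 (0.02), Lrrc75a (0.03), Foxp2 (-0.01), Notch4 (-0.02) and Foxred1 (-0.02) were near 0 there.

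Among those shared were Dbp, Lrg1 and Slc38a5. Dbp was lower by 0.24 in offspring of LF-fed dams as well (log2 difference -0.24, SE 0.0728, p = 0.00337), Lrg1 higher by 0.36 (p = 0.00475), Nfil3 by 0.23 (p = 0.0202), Slc38a5 by 0.26 (p = 0.0483), Osmr by 0.15 (p = 0.0262) and Bdnf by 0.33 (p = 0.00289). For Ciart the probes disagreed, at -0.16 (p = 0.222) for the first and -0.31 (p = 0.00229) for the second. The first probe was at 7.78, 8.44 and 8.95 in LF_LF, a group that spread more widely (SD 0.38) than HF_LF (SD 0.22), and at 7.93, 8.27 and 8.62 in LF_HF.

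Several other genes had values near 0 in offspring of LF-fed dams. Fkbp5 differed there by -0.05 (p = 0.515), Slc2a1 by -0.09 (p = 0.296), Notch4 by -0.02, Foxp2 by -0.01 and Zeb2 by -0.00, and the medians were -0.03 for the striatal list and 0.02 for the glucocorticoid-responsive list. The hypothalamus list (-0.03) and the brainstem monoamine list (0.06) were also near 0 there. The thalamus list was not, with 10 of 11 members lower and a median of -0.26. The unfolded protein response list had a median of 0.10 there, the microglial list 0.15 and the heat shock list 0.02. At an unadjusted p under 0.05 these held 5, 4 and 5 members on the higher side and 1, 0 and 0 on the lower. The choroid plexus list had 10 of 10 members lower there and a median of -0.43, against 0.08 in offspring of HF-fed dams. The difference between the dams was tested as an interaction. It called 0 of 14350 probes (0%) after adjustment and passed 138 (0.962%) at an unadjusted p under 0.05, 48 of them (0.334%) above 0 and 90 (0.627%) below. Among the 24 genes 7 had an unadjusted interaction p under 0.05, each with an adjusted p of 0.998. They were Ciart (first probe, 0.0315), Lrrc75a (0.0226), Mtf1 (0.0459), Notch4 (0.0466), Xdh (0.0313), Trp53inp1 (0.0465) and Clcc1 (0.0105). The 24 genes were chosen by their p in offspring of HF-fed dams, which is part of the interaction, so the choice itself raises this count. At other probes of the same genes the interaction p was 0.531 (Ciart), 0.957 and 0.961 (Lrrc75a), 0.573 (Mtf1), 0.44 (Notch4) and 0.65 (Trp53inp1). None of these genes is therefore shown to respond differently by maternal diet.

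**Figure D5:**
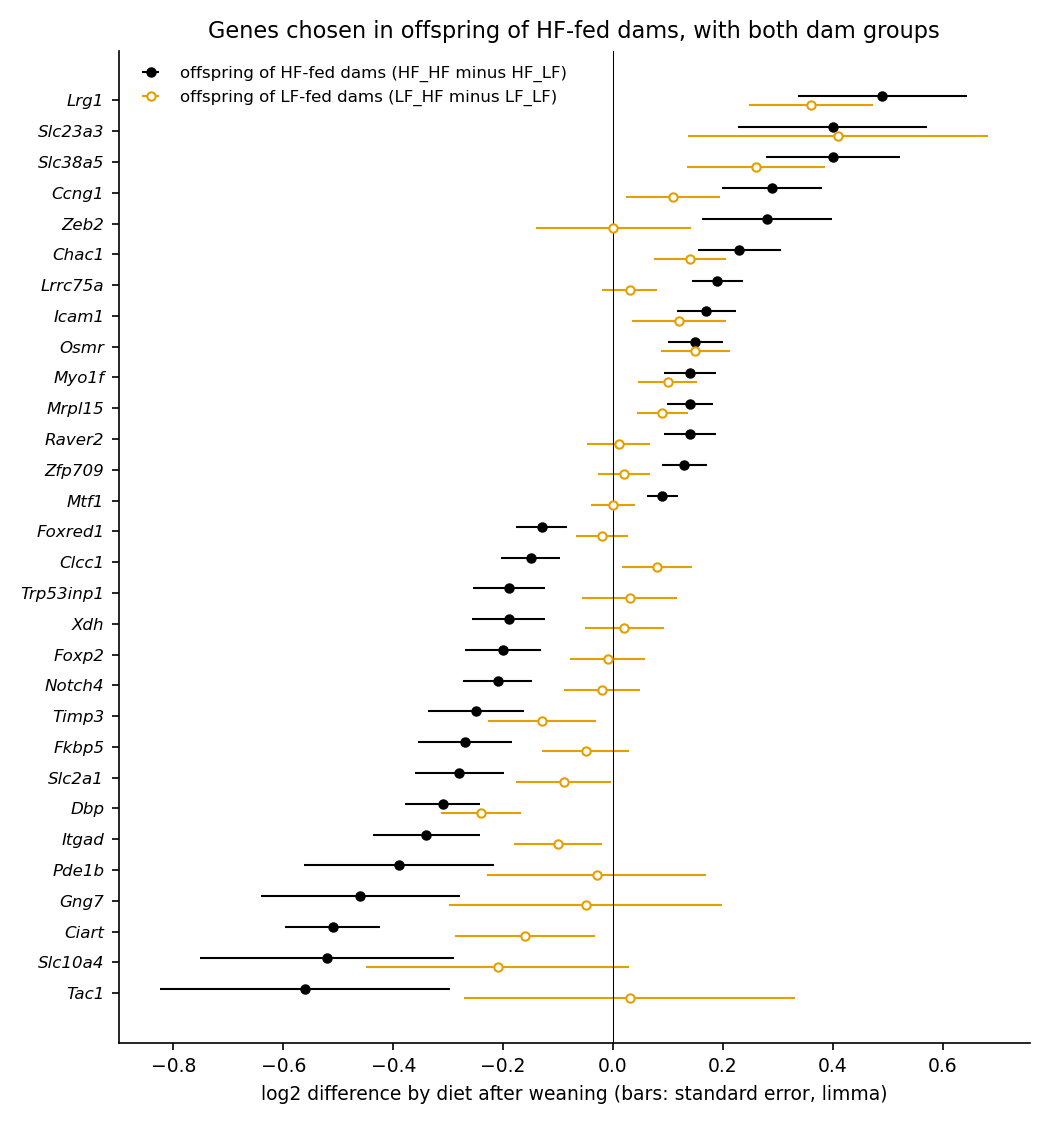
Log2 difference by diet after weaning (x axis, bars are standard errors) for the genes with the smallest p or the largest difference in offspring of HF-fed dams (y axis), in those animals (filled) and in offspring of LF-fed dams (open). Since the genes were chosen on the filled points, only the open points are free of that choice, and those of Dbp (-0.24) and Lrg1 (0.36) lay on the same side as the filled ones.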

How the data were processed

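RNA from whole brain was hybridised to Illumina mouse expression arrays, 1 array for each of 40 animals. The authors deposited quantile-normalised intensity values per probe on a linear scale (48.4 to 30357.2), with BeadStudio, of no stated version, named in the submitters' processing notes. Groups came from the maternal diet and diet labels, and animal numbers follow the order of the deposited samples and pair nothing. Probes were named from the platform annotation (23978 of 25697 had 1 gene symbol and 1719 none).

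Intensities were taken to log2. The background of an array was set at the 95th percentile of its values for 1362 probes of chemosensory receptors (odour, pheromone, taste and trace amine) (81.79 to 91.4), and 13588 to 15781 probes per array exceeded it. Raw bead counts were not used here, so the precision rests on the number of animals. limma 3.58.1 in R 4.3.3 (lmFit, eBayes with a trend) was fitted to the 20 arrays and, for the interaction, to all 40, with Benjamini-Hochberg adjustment over 14350 probes. The p-values measure the spread between these animals, some of which share a cage. Scripts were tested on simulated data. Alternatives covered normalisation, offset, probe filter, array weights, a regularised and a plain t-test across all probes, a cage term (random, fixed, or cage means), the leading principal component, and each animal or cage left out.

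Named genes were the 12 with the smallest p and the 5 with the largest difference on each side, the 4 members with the smallest p of each list described gene by gene, and all measured feeding peptides and receptors. Lists given only as counts name no members. Fos, Egr1, Egr2, Arc, Junb and Dusp1 were chosen after their values were seen. For lists, a gene was read from its brightest probe. The comparison, the lists and the rules were chosen with earlier results of these data, and the pathways the study names, already known.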

Additional observations from a re-analysis of the deposited data

Results flagged for a closer look

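In 226 groups of 10 animals, a group being 1 gene or list level in HF_HF or HF_LF, the highest or lowest animal was tested for a gap to its nearest neighbour above the 95% critical value of Dixon's test, which chance exceeds in about 1 of 20 groups. It did so in 17 groups. Values are log2 normalised intensities.

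HF_HF animal 6 of cage 20 was the far value in 6 of these. It was the highest of its group for Cartpt (10.13, next 8.87), Gal (9.32, next 7.84), Itgad (6.90, next 6.47) and the level of the brainstem monoamine list (8.57, next 7.52), and the lowest for Bdnf (8.77, next 9.30) and Zeb2 (9.14, next 9.65). Without this animal the median difference of the striatal list was -0.41 in place of -0.36, and 430 probes had an unadjusted p under 0.05 in place of 173.

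In HF_HF the lowest Ciart value was 7.84 in animal 5 (next 8.14), the highest Dbp value 11.96 in animal 9 (next 11.63) and the highest Alas2 value 7.48 in animal 10 (next 7.07). In HF_LF, animal 6 was lowest for Foxp2 (6.63, next 6.85) and highest for Slc23a3 (8.36, next 7.72) and Npy1r (8.39, next 7.94). Animal 2 was highest for S100a8 (8.76, next 7.70) and Itgad (7.28, next 6.86). Animal 4 was highest for Mrpl15 (6.70, next 6.57), animal 5 for Ghrh (7.09, next 6.59), and animal 9 was lowest for Mfsd2a (9.51, next 9.94).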

How the results depend on the processing

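The number of probes called was 0 in the fit reported and under 11 of 15 other settings, and 1 (Ciart each time) under cyclic loess, array weights, without the 5 arrays that stood apart (adjusted p = 0.00164) and with principal component 1 as a covariate. With 1 animal or cage left out it was 0 to 1, the call being Ciart without HF_LF animal 7 (adjusted p = 0.00968) or 9 (0.0314) and Dbp without HF_HF animal 9 (0.0189). Each of these animals lay toward the other group for the gene called, so leaving it out widens the difference by construction. Over the 41 settings the adjusted p of Ciart ran from 0.00164 to 1. The number of probes with an unadjusted p under 0.05, 173 as reported, was 534 with no filter, 580 with array weights, 101 with the regularised t-test, 323 with cage as a fixed block, 266 with that block in cages 10, 20 and 23 alone, 274 with means per cage and diet, 395 without the arrays that stood apart and 442 with the principal component, and 134 to 430 with 1 animal or cage left out (430 without HF_HF animal 6, 293 without HF_LF animal 6, 289 without cage 20). The interaction called 1 probe with no filter (A430078G23Rik, adjusted p = 0.0374). The median of the clock output list was -0.23 with cage as a fixed block.

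Of 98 genes 79 kept their direction in all settings. With the fixed block, in all or in 3 cages, Per1 turned to 0.14, Tek to -0.05, P2ry13 to -0.08, Npy1r to -0.03 and Npy5r to -0.12. Without the arrays that stood apart Nts turned to 0.02, Npy2r to -0.06 and Ghsr to 0.03. With means per cage and diet Cnr1 turned to -0.01, Trh to 0.06, Npy5r to -0.03 and Ghsr to 0.03. Array weights gave -0.02 for Npy2r and -0.00 for Npy5r, and cyclic loess -0.00 for Npy5r. With 1 animal or cage left out the ranges that crossed 0 were -0.07 to 0.49 for Fos, -0.15 to 0.40 for Egr2, -0.26 to 0.42 for Arc, -0.05 to 0.19 for Junb, -0.22 to 0.18 for Dusp1, -0.15 to 0.03 for Usp2, -0.50 to 0.01 for Gal, -0.10 to 0.01 for Mchr1, -0.03 to 0.05 for Cnr1, -0.05 to 0.02 for Mc4r, -0.23 to 0.29 for Trh, -0.08 to 0.15 for Npy2r, -0.04 to 0.05 for Npy5r and -0.05 to 0.04 for Ghsr. The lowest values of Fos, Egr2, Arc, Junb and Dusp1 came without cage 23. Medians ran from -0.57 to -0.15 for the striatal list and from -0.14 to -0.01 for the glucocorticoid-responsive list, and the cause of these shifts was not tested. No paired analysis was possible because the labels carry no replicate numbers. The cages that held both diets link the groups, and they were used as a block as given above. Probes near background limit Hcrt, Pmch, several receptors, Itgad, Clcc1 and the leading probe of Lrrc75a.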
